A study of Mus musculus with 9 samples.

Results

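The 10 genes described here, Cd36, Fabp1, Fabp2, Mogat2, Dgat1, Mttp, Apob, Apoa1, Apoa4 and Apoc3, carry dietary fat through the absorptive cell and pack it into lipoproteins. They were taken by name, as every probe set annotated with 1 of these symbols, which gave 20 of the 45101 probe sets on the array. All 10 genes were among the 12941 genes tested, and the probe set that stands for each gene lay above the filter level (the 40th percentile of its array, signals of 25.9 to 32) on all 9 arrays.

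RNA came from organoids of mouse small intestine, epithelial cultures that grow from crypts and hold stem cells beside their differentiated progeny, and was read on the Affymetrix Mouse Genome 430 2.0 array. The 3 groups of 3 arrays were untreated organoids (labelled no treatment), organoids given 20 uM of a compound that blocks the TGF-beta receptors, and organoids given the ligand TGF-beta1 at 0.04 ng/mL. Cultures were kept for 6 days, and treatment ran for 5 days from day 1. The strain, age and genotype of the mice, the compound used as inhibitor, any vehicle and the culture behind each replicate are not stated in the labels used here. The p-values therefore rest on the spread among the arrays of a group, and that spread may be technical only. The comparisons ask how these genes stood when the receptors were blocked and when their ligand was added.

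Fat absorption runs in steps. Fatty acids and monoglycerides enter at the brush border, where the scavenger receptor CD36 binds fatty acids, and the binding proteins FABP1 and FABP2 carry them through the cytosol. MOGAT2 and DGAT1 join them again into triglyceride in the endoplasmic reticulum, the microsomal triglyceride transfer protein (MTTP) loads that triglyceride onto apolipoprotein B, and apolipoproteins such as A-I, A-IV and C-III coat the resulting chylomicron. In the intestine these genes are marks of mature enterocytes of the villus, and the nuclear receptor HNF4 is a known activator of many of them.

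With the receptor inhibitor 7 of the 10 genes rose and 0 fell, from Cd36 (2.79-fold) and Apob (2.23-fold) down to Apoa4 (1.25-fold) and Apoc3 (1.17-fold), while Fabp1, Fabp2 and Dgat1 did not pass the test. With the ligand 7 fell and 0 rose, from Mogat2 (2.07-fold lower) and Mttp (1.93-fold lower) to Fabp2 (1.40-fold lower), while Fabp1, Apob and Apoa4 did not pass. The words called, rose and fell are kept for an adjusted p under 0.05 over all 12941 genes in limma. Of all genes tested 21.2% rose and 23.9% fell with the inhibitor, and 14.8% rose and 9.37% fell with the ligand. Of the 10 genes, 0 reached an unadjusted p under 0.05 in the other direction in either comparison. By at least 1.5-fold, 4 of the 10 rose with the inhibitor (8.11% of all genes) and 5 fell with the ligand (2.77%). The median log2 change was 0.36 for the 10 genes and -0.01 for all genes with the inhibitor, and -0.65 against 0.05 with the ligand. The comparisons with untreated share the 3 untreated arrays. Log2 changes are given as estimate ± SE on the log2(signal + 16) scale, signals as mean ± SD, with n = 3 arrays in every group.

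**Figure D1:**
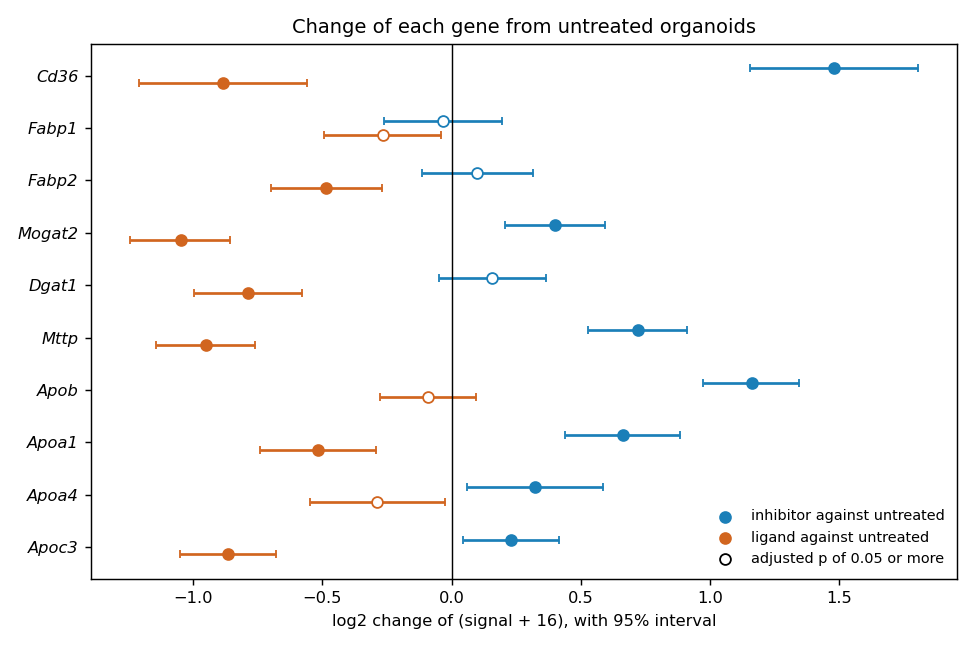
Log2 change of each of the 10 genes from untreated organoids (horizontal axis, log2 of signal + 16, with its 95% interval), with the inhibitor in blue and the ligand in orange, n = 3 arrays a group. Filled points have an adjusted p under 0.05. Blue points reach 1.48 for Cd36 and 1.16 for Apob, orange points reach -1.05 for Mogat2, and the blue point of Fabp1 (-0.03) turns above 0 under quantile normalization or median centring.

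RefSeq promoter windows of the mouse build GRCm38.p6 were matched by symbol for 7 of the 10 genes; Mogat2, Dgat1 and Apoc3 were not matched. The 250 bases before the annotated start site were searched on both strands for TATAAA (the TATA box), CAAAGTNCA (a motif of HNF4), TTTATNG (a motif of the intestinal factors CDX1 and CDX2) and GTCTAGAC (the palindrome bound by SMAD proteins, which act below the TGF-beta receptors). 4 windows are shown because their genes differ in the calls. Cd36 and Apob, with the largest inhibitor changes of the 10 genes, are not among them. Mttp moved in both comparisons, Fabp2 with the ligand alone in the calls, Apoa4 with the inhibitor alone, and Fabp1 in neither. These are calls of the probe set standing for each gene. That of Apoa4 was lost in 12 of 21 alternative fits, and the other Fabp1 probe set was called lower with the ligand. The changes of Apoa4 were of similar size, 0.32 with the inhibitor and -0.29 with the ligand. Each runs 5′ to 3′ along the gene's own strand, with every match of the searched motifs in capitals.
Mttp, chr3:138143419-138143668, - strand: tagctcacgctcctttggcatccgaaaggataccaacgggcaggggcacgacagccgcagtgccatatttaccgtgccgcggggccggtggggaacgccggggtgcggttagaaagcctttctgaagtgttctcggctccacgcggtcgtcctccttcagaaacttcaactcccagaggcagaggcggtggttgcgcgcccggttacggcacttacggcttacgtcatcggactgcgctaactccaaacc
Fabp1, chr6:71199629-71199878, + strand: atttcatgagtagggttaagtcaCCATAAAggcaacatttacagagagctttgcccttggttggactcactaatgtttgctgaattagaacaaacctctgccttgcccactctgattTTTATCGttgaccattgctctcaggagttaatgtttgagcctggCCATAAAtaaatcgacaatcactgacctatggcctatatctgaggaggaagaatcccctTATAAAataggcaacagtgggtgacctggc
Fabp2, chr3:122894822-122895071, + strand: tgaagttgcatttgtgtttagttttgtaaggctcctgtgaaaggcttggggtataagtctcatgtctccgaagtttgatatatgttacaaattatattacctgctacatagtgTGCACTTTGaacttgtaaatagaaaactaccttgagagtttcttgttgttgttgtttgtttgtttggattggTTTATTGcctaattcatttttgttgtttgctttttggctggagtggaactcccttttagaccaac
Apoa4, chr9:46240594-46240843, + strand: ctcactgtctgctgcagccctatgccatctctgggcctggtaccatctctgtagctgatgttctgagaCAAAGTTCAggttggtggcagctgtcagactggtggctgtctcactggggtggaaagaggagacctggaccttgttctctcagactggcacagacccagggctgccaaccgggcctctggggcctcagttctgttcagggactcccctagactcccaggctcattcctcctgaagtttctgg

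The HNF4 motif was found in the windows of Fabp2 (its first letter 137 bases before the start) and Apoa4 (182 bases before it), and in 1.19% of all 32851 windows of this length. A TATA box stood 30 bases before the start of Fabp1 and 60 bases before the annotated start of Apob, and in 12.4% of all windows. The CDX motif matched at 3 places in the Fabp1 window and at 1 each in those of Fabp2 and Apob, where it overlaps the TATA box, and in 9.81% of all windows. The SMAD palindrome was in 0 of the 7 windows and in 0.167% of all. The windows of Mttp, Cd36 and Apoa1 held none of these 4 strings. The Mttp window was 61.2% G and C and that of Fabp2 35.6%, where the median of all windows was 52.4%. A match of letters is not a site that a factor was shown to use, and a window without these exact strings may still hold a site. Apoa1, Apoc3 and Apoa4 are next to each other on chromosome 9 in RefSeq, followed by Apoa5, and Mogat2 lies beside Dgat2 on chromosome 7.

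Uptake at the brush border is represented by Cd36, which had the widest span of group means of the 10 genes (2.36 on the log2 scale). Its signals were 151.4, 200.4 and 128.7 in untreated arrays, 413.3, 474.8 and 522.7 with the inhibitor, and 75.36, 91.66 and 68.95 with the ligand. No group overlapped another. Cd36 rose by 1.48 ± 0.15 with the inhibitor (160.2 ± 36.6 to 470.3 ± 54.8, adjusted p 4.36e-06). It fell by 0.88 ± 0.15 with the ligand (to 78.65 ± 11.7, adjusted p 0.00089). Against the inhibitor arrays the ligand arrays were 5.14-fold lower. A further probe set, 1450883_a_at, rose with the inhibitor by 1.18 ± 0.14, and its ligand change of -0.35 ± 0.14 did not pass (adjusted p 0.12). The third, 1450884_at, lay about the filter level (27.01 ± 6.05 in untreated arrays) and was called in no comparison. With the mean of the probe sets in place of the brightest, the changes of Cd36 were 0.95 with the inhibitor and -0.51 with the ligand, both still called.

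The cytosolic carriers Fabp1 and Fabp2, the liver and intestinal types of fatty acid binding protein, gave some of the brightest signals on the arrays. The Fabp1 probe set 1448764_a_at read 17880, 20240 and 18110 in untreated arrays, 15830, 20320 and 18990 with the inhibitor, and 15040, 16170 and 15470 with the ligand. All 3 ligand arrays lay below all 3 untreated arrays, and inhibitor replicate 1 lay below 1 of the ligand arrays. Its change of -0.03 ± 0.11 with the inhibitor was not called (95% interval -0.26 to 0.19, adjusted p 0.823), and its sign turned under quantile normalization (0.08) and median centring (0.01). Its change of -0.27 ± 0.11 with the ligand did not pass either (-0.49 to -0.04, adjusted p 0.0833), and it passed in 4 of 21 alternatives, among them quantile normalization (0.0186) and the fit without inhibitor replicate 1 (0.038), in a range of 0.0186 to 0.262. The other probe set of Fabp1, 1417556_at, read 18600, 20420 and 16600 in untreated arrays and 12370, 12370 and 14740 with the ligand. By that probe set Fabp1 fell with the ligand by 0.49 ± 0.12 (adjusted p 0.0139 over all probe sets). It was the brightest probe set of the whole array on all 3 inhibitor arrays (17000, 22100 and 20840), so these readings stood at the top of the measured range.

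Fabp2 read 13020, 13990 and 12650 in untreated arrays, 12400, 15650 and 14590 with the inhibitor, and 8972, 9173 and 10200 with the ligand. The ligand arrays lay below all 6 others, while untreated and inhibitor arrays overlapped. Fabp2 fell with the ligand by 0.49 ± 0.10, or 1.40-fold (adjusted p 0.00327). With the inhibitor its change of 0.10 ± 0.10 was not called (95% interval -0.12 to 0.31, adjusted p 0.456), and it passed only under quantile normalization (0.24, adjusted p 0.000858).

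**Figure D2:**
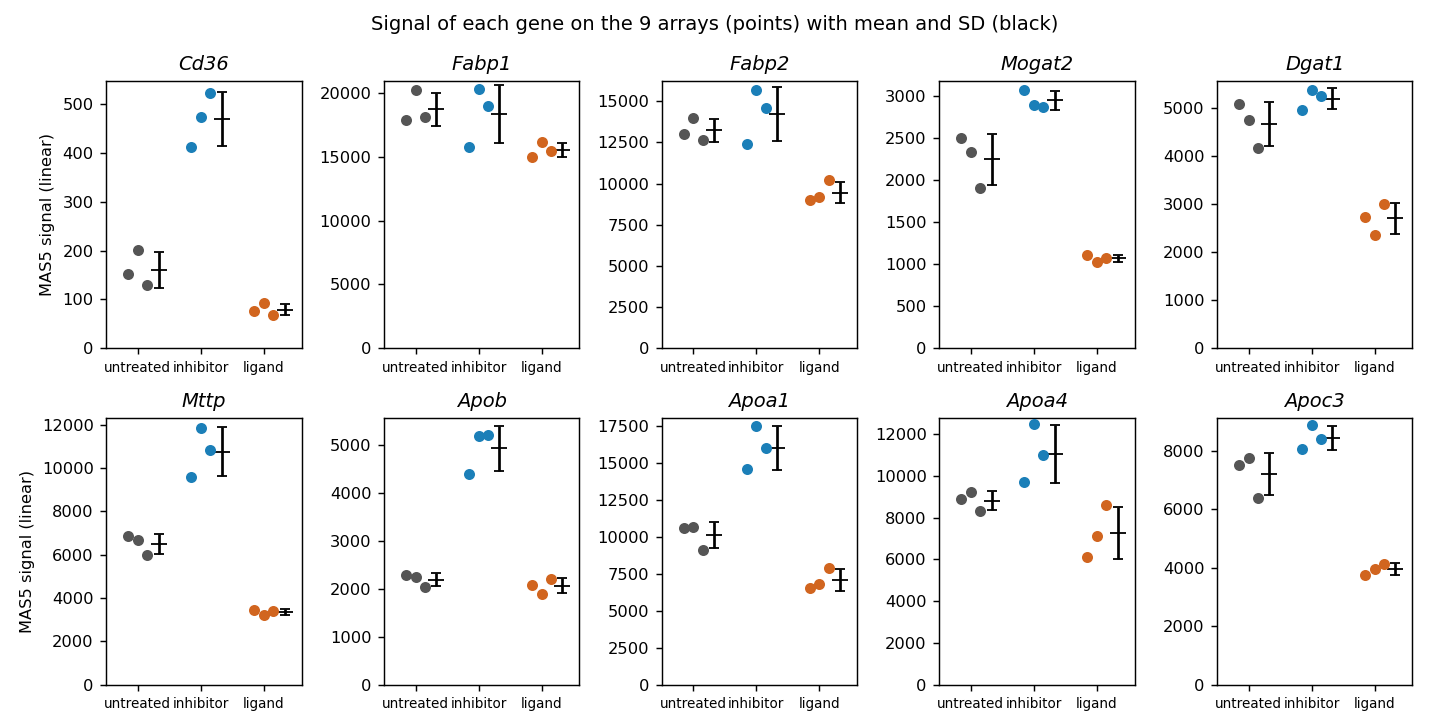
MAS5 signal of the probe set standing for each gene (vertical axis, linear scale from 0) on the untreated, inhibitor and ligand arrays; points are replicates 1 to 3 from left to right and the black mark is the mean with SD. The ligand arrays lie below the untreated arrays in 8 of the 10 panels (14.5% of all genes), with overlap for Apob and Apoa4, and the inhibitor arrays lie above them in 7 (26.7% of all genes).

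Mogat2 encodes the acyltransferase that turns monoglyceride into diglyceride, and Dgat1 an enzyme that adds the last fatty acid. Mogat2 read 2501, 2339 and 1905 in untreated arrays, 3081, 2898 and 2877 with the inhibitor, and 1111, 1031 and 1072 with the ligand, with no overlap between groups. It rose by 0.40 ± 0.09 with the inhibitor (1.32-fold, adjusted p 0.00252) and fell by 1.05 ± 0.09 with the ligand (2.07-fold, adjusted p 3.97e-06). Dgat1 read 5092, 4764 and 4177 in untreated arrays, 4971, 5391 and 5252 with the inhibitor, and 2741, 2367 and 3012 with the ligand. Its ligand arrays stood apart from the other 6, and its inhibitor arrays overlapped the untreated ones. Dgat1 fell by 0.79 ± 0.10 with the ligand (1.73-fold, adjusted p 6.36e-05). Its inhibitor change of 0.16 ± 0.10 was not called (95% interval -0.05 to 0.37, adjusted p 0.206). The dimmer Dgat1 probe set 1445229_at gave 206.7 ± 34.9, 207.1 ± 4.37 and 135 ± 11.7 in untreated, inhibitor and ligand arrays, called lower with the ligand by 0.55 ± 0.12 (adjusted p 0.00846).

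Mttp and Apob encode the core of lipoprotein assembly. Mttp read 6867, 6657 and 5999 in untreated arrays, 9563, 11830 and 10850 with the inhibitor, and 3449, 3213 and 3395 with the ligand. The 3 groups were fully separate. Mttp rose by 0.72 ± 0.09 with the inhibitor (1.65-fold, adjusted p 2.34e-05) and fell by 0.95 ± 0.09 with the ligand (1.93-fold, adjusted p 7.37e-06), and ligand arrays were 3.19-fold below inhibitor arrays. Its other probe set, 1419399_at, was called in the same directions, by 0.87 ± 0.09 and by -0.85 ± 0.09.

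Apob read 2294, 2247 and 2042 in untreated arrays, 4395, 5180 and 5217 with the inhibitor, and 2074, 1901 and 2211 with the ligand. The inhibitor arrays were far above the other 6, which overlapped each other. Apob rose by 1.16 ± 0.09 with the inhibitor (2.23-fold, adjusted p 3.03e-07), and its ligand change of -0.09 ± 0.09 was not called (95% interval -0.28 to 0.10, adjusted p 0.499). A dimmer probe set, 1457554_at (66.48 ± 23.3 in untreated arrays), rose by 1.02 ± 0.22 with the inhibitor and had a ligand change of -0.29 ± 0.22 that was not called (adjusted p 0.427).

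The coat apolipoproteins come from 1 cluster of genes but differed in size of change. Apoa1, the main protein of HDL and a component of chylomicrons, read 10630, 10650 and 9097 in untreated arrays, 14580, 17510 and 16000 with the inhibitor, and 6527, 6798 and 7907 with the ligand. Its groups did not overlap. It rose by 0.66 ± 0.10 (1.58-fold, adjusted p 0.000163) and fell by 0.52 ± 0.10 (1.43-fold, adjusted p 0.00271). Its 3 probe sets ending in _x_at, whose probes can also match other transcripts, rose by 0.37 to 0.51 with the inhibitor. With the ligand they changed by -0.44 to -0.32, and 1438840_x_at was not called (adjusted p 0.0926).

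Apoc3, an inhibitor of the clearance of triglyceride-rich particles, read 7512, 7733 and 6388 in untreated arrays, 8041, 8866 and 8412 with the inhibitor, and 3735, 3972 and 4129 with the ligand. The ligand arrays were far below all others, and the inhibitor arrays just above the untreated ones. Apoc3 fell by 0.86 ± 0.09 with the ligand (1.82-fold, adjusted p 1.22e-05). Its rise of 0.23 ± 0.09 with the inhibitor was close to the threshold (adjusted p 0.0436). Among 21 alternatives its adjusted p ran from 0.00685 to 0.213, and 9 of them ended the call. With 1 array left out these were untreated replicate 1 (0.0537) or 3 (0.213; change 0.15), inhibitor replicate 2 (0.141) or 3 (0.0969) and ligand replicate 2 (0.0546). The others were no filter (0.0702), median centring (0.0833), no intensity trend (0.0685) and the fit of all probe sets (0.0565).

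Apoa4, made when the gut absorbs fat, read 8867, 9203 and 8304 in untreated arrays, 9697, 12450 and 11000 with the inhibitor, and 6107, 7100 and 8582 with the ligand. The inhibitor arrays lay above the untreated ones, and ligand replicate 3 fell within their range. Apoa4 rose by 0.32 ± 0.12 with the inhibitor (adjusted p 0.0441), a call that was lost in 12 of 21 alternatives, with adjusted p from 0.000485 to 0.667. Among them were the 3 fits that each left out 1 untreated array (0.086, 0.0643 and 0.134) and those without inhibitor replicate 2 (0.177) or 3 (0.0975) or ligand replicate 2 (0.0543). Its brighter probe set 1436504_x_at gave 0.07 ± 0.12 with the inhibitor. With the ligand the change of -0.29 ± 0.12 did not pass (95% interval -0.55 to -0.03, adjusted p 0.104), and it passed without ligand replicate 3 (-0.42, adjusted p 0.0121, in a range of 0.0121 to 0.36). So the inhibitor call of 5 genes, Cd36, Mogat2, Mttp, Apob and Apoa1, was kept under all 21 alternatives tried, and those of Apoa4 and Apoc3 were not.

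Over all 20 probe sets of these genes, 11 were called higher with the inhibitor (15% of all 28655 probe sets) and 0 lower (20.1%). With the ligand 12 were called lower (5.92%) and 0 higher (9.73%), and for ligand against inhibitor 18 lower (17.9%) and 0 higher (29.4%). Probe sets of 1 gene read the same transcripts and are not separate observations.

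**Figure D3:**
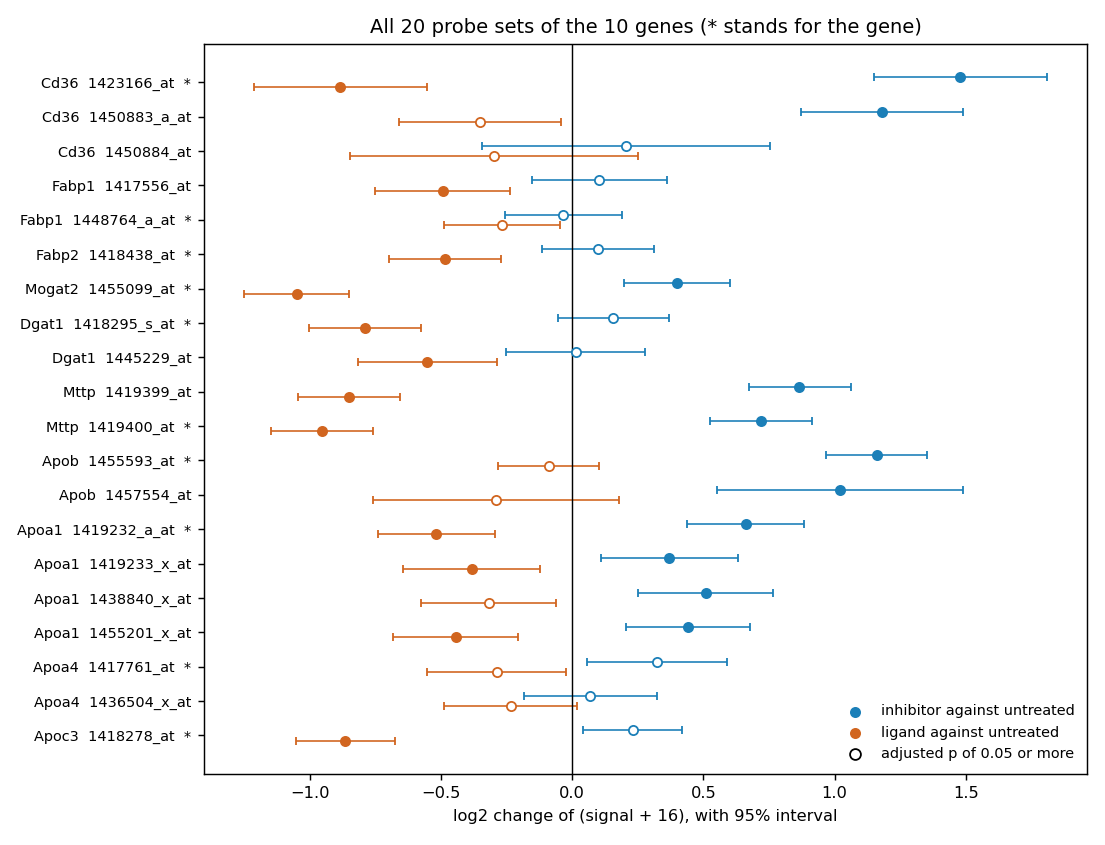
Log2 change from untreated (horizontal axis, log2 of signal + 16, with 95% interval) for the 20 probe sets of the 10 genes, inhibitor in blue and ligand in orange; an asterisk marks the probe set that stands for the gene. Filled points have an adjusted p under 0.05 over all 28655 probe sets, a larger family than the genes, so Apoa4 (0.0571) and Apoc3 (0.0565) are open for the inhibitor here.

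Ligand against inhibitor is the comparison whose changes do not use the untreated arrays, though its SE and p-values share the spread of all 9 arrays. In it 9 of the 10 genes were lower with the ligand, where 23% of all genes were, and 0 were higher (32.6%). By at least 1.5-fold 8 were lower (10.6%). The values of these 9 did not overlap between groups, as in 25.5% of all genes toward lower. The changes ran from -2.36 ± 0.15 for Cd36, -1.67 ± 0.09 for Mttp and -1.45 ± 0.09 for Mogat2 through -1.25 ± 0.09 for Apob to -0.58 ± 0.10 for Fabp2, with a median of -1.14 against 0.07 for all genes. Fabp1 was the gene not called (-0.23 ± 0.11, adjusted p 0.0762), and it passed in 5 of 21 alternatives, such as without inhibitor replicate 1 (0.00969) and under quantile normalization (0.00142), in a range of 0.00142 to 0.266. That holds for the probe set standing for the gene. By the other, 1417556_at, Fabp1 was lower with the ligand by 0.60 ± 0.12 (adjusted p 0.00112 over all probe sets).

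Whether the change with the inhibitor and the change with the ligand differed in size was tested with the sum of both changes, which is 0 when they are equal and opposite; this contrast was chosen after seeing the data. For Apob the sum was 1.07 ± 0.15 (adjusted p 0.000243), its inhibitor change being the larger, and this was called in all 20 alternatives that gave it. A sum above 0 was called in 12.8% of all genes. The sums of Mogat2 (-0.65 ± 0.16, adjusted p 0.00847), Dgat1 (-0.63 ± 0.17, adjusted p 0.0147) and Apoc3 (-0.63 ± 0.15, adjusted p 0.00788) were below 0, as in 11.1% of all genes, their ligand change being the larger. Those of Mogat2 and Dgat1 were lost without untreated replicate 1 (0.0581 and 0.0877) or 2 (0.0508 and 0.0649), and that of Apoc3 without untreated replicate 2 (0.0571). The sums of the other 6 genes were not called. That of Cd36 (0.60 ± 0.26, adjusted p 0.119) passed with an offset of 64 (0.0442) and without untreated replicate 2 (0.91, adjusted p 0.0327), and that of Apoa1 under quantile normalization (0.35, adjusted p 0.0429). For Mttp it was -0.23 (95% interval -0.57 to 0.10) and for Apoa1 0.15 (-0.24 to 0.53).

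Within groups the arrays differed in how many of the 10 genes they held at the lowest signal. Untreated replicate 3 was the lowest of its group for 9 of the 10 genes and inhibitor replicate 1 for 9 of 10, while in the ligand group replicates 1, 2 and 3 were the lowest for 5, 4 and 1 genes. Inhibitor replicate 1 also had the lowest 98th percentile of signal in its group (5011 against 5396 and 5518), while untreated replicate 3 did not (5307 against 5201 and 5477). The part of these array differences in the results was not tested beyond leaving each array out. The trimmed mean signal was 349.9 on each array, and array medians were 46.1 to 57.9. Centring each array on its median instead shifted the median of all genes by -0.11 with the ligand and by -0.16 for ligand against inhibitor. It turned the share of higher among called genes from 61.2% to 36.4% and from 58.6% to 41.8%. The 10 genes stayed lower with the ligand under that centring, with a median of -0.77 against -0.06 for all genes, and 7 were called lower where 13.4% of all genes were.

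The other genes of the pathway were taken from 4 lists. Their counts, and those of the cell type lists below, are to be read beside the shares of all genes. With the inhibitor 21.2% rose and 23.9% fell, and with the ligand 14.8% rose and 9.37% fell. Of 13 tested genes of lipid uptake and activation 6 rose and 2 fell with the inhibitor (median 0.23), and 6 fell and 2 rose with the ligand (median -0.15). Npc1l1, the cholesterol transporter of the brush border, rose by 0.71 and fell by 0.98. Slc27a4, a fatty acid transport protein, rose by 0.88 with the inhibitor and fell by 0.39 with the ligand, and Acsl5, which activates fatty acids with coenzyme A, rose by 0.50 and fell by 0.34, the latter call being lost without untreated replicate 1 (adjusted p 0.0519) or ligand replicate 2 (0.0543). The other way went Clps, the cofactor of pancreatic lipase that is also made by Paneth cells, which fell by 1.81 with the inhibitor and rose by 0.72 with the ligand. Slc27a1 rose by 0.73 with the ligand. Without untreated replicate 1, or without ligand replicate 2, only 5 of this list were called with the ligand in place of 8, 2 of them higher.

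Of 20 tested genes of triglyceride synthesis and lipid droplets 12 rose and 0 fell with the inhibitor (median 0.32), while 7 fell and 0 rose with the ligand (median -0.16). Abhd5, the activator of triglyceride lipase, rose by 1.24, Cidec, a droplet protein, by 1.04, Bscl2 (seipin) by 0.71 and the phosphatidate phosphatase Lpin2 by 0.61. Abhd5, Cidec, Bscl2 and Lpin2 were not called with the ligand. With the ligand Gpat3, an enzyme of the glycerol phosphate route, fell by 0.94, Cideb, which helps lipidate lipoproteins, by 0.56, Dgat2 by 0.46 and Agpat2 by 0.39. Gpat3, Cideb and Agpat2 also rose with the inhibitor, by 0.67, 0.73 and 0.31. Dgat2, the neighbour of Mogat2 on the chromosome and an enzyme of the same step as Dgat1, rose by 0.38 with the inhibitor. Plin2, the coat protein of droplets, was not called in either comparison (2270, 1980 and 2160 in untreated, inhibitor and ligand arrays). Without untreated replicate 1 the ligand count of this list was 4.

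Of 21 genes of lipoprotein assembly and export 10 rose and 1 fell with the inhibitor (median 0.37), and 5 fell and 1 rose with the ligand (median -0.19). Apobec1, the enzyme that edits the Apob transcript so that the short intestinal form is made, rose by 1.17 with the inhibitor (343 to 793), and its ligand change of -0.28 was not called (adjusted p 0.107). Tmem41b rose by 1.02, a call lost when probe sets ending in _x_at were allowed (adjusted p 0.176). Pla2g12b, a secreted phospholipase-like protein needed for lipoprotein loading, rose by 0.90 and fell by 0.65. Tm6sf2, a membrane protein of lipoprotein lipidation, fell by 1.13 with the ligand (2090 to 939) and Sec23a, a coat protein of vesicles that leave the endoplasmic reticulum, by 0.65. Tm6sf2 and Sec23a also rose with the inhibitor, by 0.71 and 0.39. Apoc2, the activator of lipoprotein lipase, rose by 0.77 and fell by 0.46. P4hb, the disulfide isomerase that forms the second subunit of the transfer protein with MTTP, was not called in any comparison (12100, 12500 and 10600). Apoe (19.6 in untreated arrays) lay below the filter level in its mean, as did Apoa5, the fourth gene of the chromosome 9 cluster, with the ligand (15.8), and neither was called.

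Of 19 tested genes for transcription factors of lipid metabolism and their cofactors 4 rose and 5 fell with the inhibitor (median -0.04). These inhibitor counts were near the shares of all genes (21.2% and 23.9%). With the ligand 10 fell and 0 rose (median -0.27). Hnf4g, which encodes the intestinal HNF4 receptor HNF4-gamma, rose by 0.62 and fell by 1.01 (593, 913 and 284), whereas Hnf4a was not called in any comparison (7610, 7860 and 6880). Creb3l3, an activator of apolipoprotein genes, rose by 0.93 with the inhibitor and fell by 0.64 with the ligand, and the bile acid receptor gene Nr1h4 rose by 0.78 and fell by 0.68. Ppargc1a, a coactivator of metabolic genes, fell by 0.90 with the ligand. With the inhibitor its fall of 0.26 (adjusted p 0.0383) was lost in 10 of 21 alternatives, in a range of 0.0074 to 0.144. Among these were quantile normalization (0.0665), median centring (0.0901) and the fits without untreated replicate 1 (0.127) or 3 (0.143) or inhibitor replicate 2 (0.144) or 3 (0.0671). Mlxipl, a sugar-responsive factor, fell by 0.59 and Ppara, a receptor for fatty acids, by 0.71 with the ligand. With the inhibitor Srebf1, a regulator of fatty acid synthesis, rose by 0.45. Nr5a2, a nuclear receptor of crypt cells, fell with the ligand by 0.57 (adjusted p 0.00257), a call kept under all 21 alternatives. Nr5a2 also fell with the inhibitor, by 0.75, a call lost with the mean of probe sets (adjusted p 0.0634). With that mean 5 of this list were called with the inhibitor in place of 9.

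**Figure D4:**
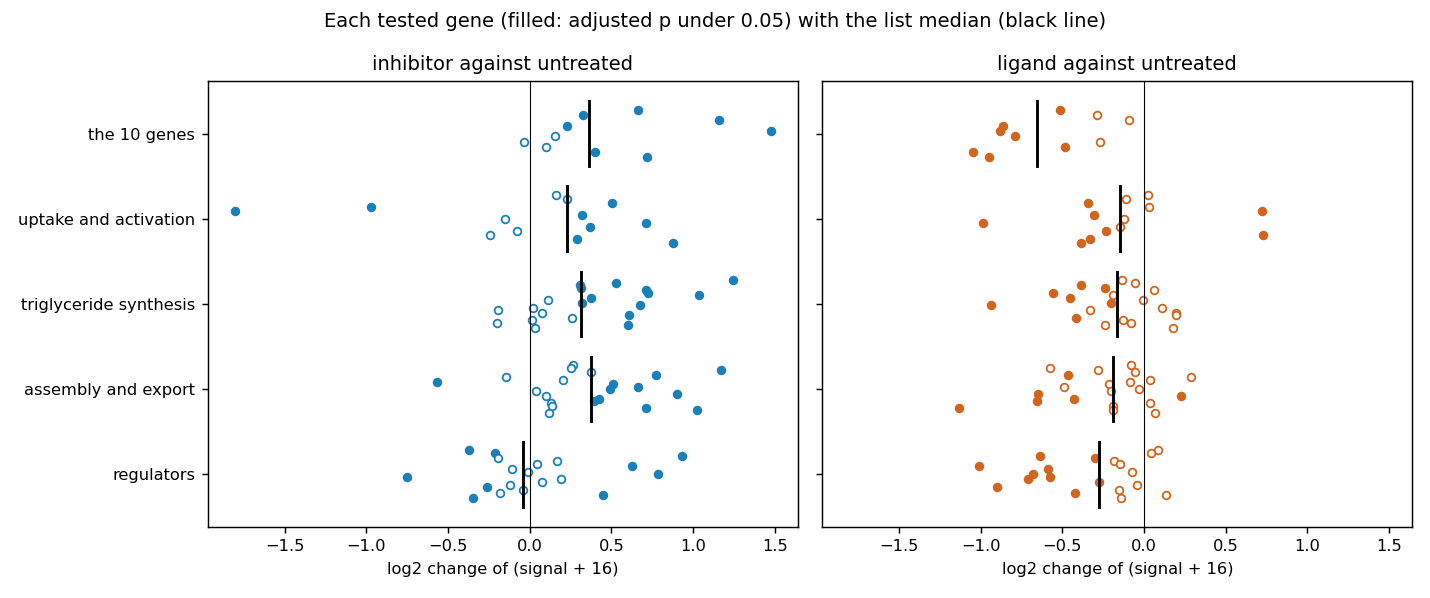
Log2 change from untreated (horizontal axis, log2 of signal + 16) of each tested gene of the 10 genes and of the 4 pathway lists, inhibitor left and ligand right; filled points have an adjusted p under 0.05 and the black line is the list median. Medians with the inhibitor are 0.36, 0.23, 0.32, 0.37 and -0.04 from top to bottom, and with the ligand -0.65, -0.15, -0.16, -0.19 and -0.27.

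Markers of the cells of the organoid moved beside these genes. Of 16 tested enterocyte markers other than the 10 genes, 10 rose and 1 fell with the inhibitor and 10 fell and 1 rose with the ligand. Their summed signal was 44270 to 49620 in untreated arrays, 60810 to 66300 with the inhibitor and 31400 to 33860 with the ligand. Anpep and Dpp4, peptidases of the brush border, rose by 1.90 and 1.33 with the inhibitor, and the sugar transporters Slc2a2 and Slc2a5 fell by 1.58 and 1.30 with the ligand. Lct, which encodes lactase, rose in both (0.35 and 0.93), and Slc2a5 fell in both (-0.55 with the inhibitor). Of 11 stem cell markers 11 fell with the inhibitor and 7 rose with the ligand, with sums of 36020 to 41080, 14380 to 16020 and 46080 to 54490. Olfm4 fell by 3.96 and Ascl2 by 1.74 with the inhibitor, and Rnf43 rose by 1.42 and Ascl2 by 1.13 with the ligand. In bulk RNA a change in the number of enterocytes and a change in RNA per enterocyte cannot be told apart, and the part of cell makeup in the changes of the 10 genes was not tested.

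**Figure D5:**
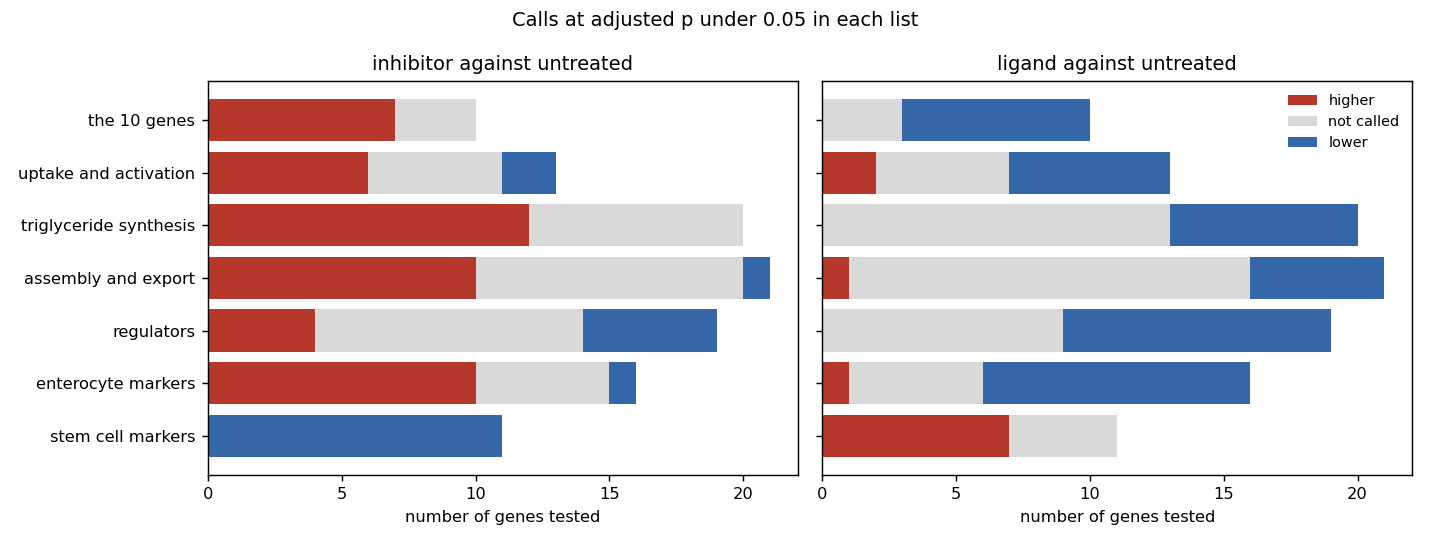
Number of tested genes (horizontal axis) called higher, called lower or not called at adjusted p under 0.05 in the 10 genes, the 4 pathway lists and the enterocyte and stem cell markers, inhibitor left and ligand right. The inhibitor panel shows 7 of 10 genes and 10 of 16 enterocyte markers higher with 11 of 11 stem cell markers lower, and the ligand panel 7 of 10 and 10 of 16 lower with 7 of 11 higher.

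Of the other epithelial lists, goblet markers had 0 higher and 4 lower of 8 with the inhibitor, and 1 higher (Spdef, 0.69) and 2 lower (Zg16, -1.77, and Clca1, -0.77) with the ligand (sums of 32660 to 38780 in untreated, 26850 to 31900 in inhibitor and 31770 to 39210 in ligand arrays). Paneth markers had 1 higher and 2 lower of 7 with the inhibitor and 3 higher and 1 lower with the ligand (sums of 19020 to 23990, 19700 to 21450 and 25300 to 32820). The Paneth count with the ligand was 2 in place of 4 without untreated replicate 2 or 3 or inhibitor replicate 1 or 2. It was also 2 with no filter, no intensity trend, a fit of the 2 groups alone or the fit of all probe sets. The ligand call of Lyz2 was lost in 14 of 21 alternatives and that of Mptx1 in 10 of 21. Enteroendocrine markers had 4 higher and 3 lower of 9, then 7 higher and 0 lower (sums of 10330 to 12180, 11850 to 12450 and 14590 to 15880), the latter 4 higher under median centring. Among these the inhibitor call of Gip was lost in 10 of 21 alternatives. The ligand call of Gcg was lost in 6 of 21 and that of Pyy in 6 of 20. Tuft markers had 2 lower of 5 tested with the inhibitor and 3 higher with the ligand (sums of 251.1 to 330.5, 137.7 to 170.4 and 620.5 to 669.1).

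Cd36 is also made by macrophages, endothelium and fat cells, and Apoa1, Apob and Fabp1 by hepatocytes. Among endothelial markers 5 of 6 on the array, Pecam1, Cdh5, Tek, Vwf and Fabp4, lay below the filter level on all 9 arrays, and the sixth, Kdr (24, 36 and 28.2), was not called (sums of 81.56 to 101.3, 78.54 to 125.1 and 89.3 to 110.1). Among adipocyte markers 0 of 3 on the array passed the filter (sums of 25.85 to 34.94, 32.85 to 51.94 and 31.99 to 41.86). Adipoq and Lep lay below the level throughout, and the third, Plin4, had means of 11.9, 28.9 and 20. With no filter 1 of these 3 was called higher with the inhibitor. Of 7 leukocyte markers on the array Ptprc, Itgam and Cd3e lay below it throughout, while Csf1r (66.2, 140 and 57.5) rose by 0.92 and Cd68 (64.4, 112 and 60.6) by 0.66 with the inhibitor at dim signals and Lyz2, also a Paneth product, fell by 0.69 (list sums of 1361 to 1540, 1036 to 1184 and 1547 to 2390). Lyz2 (1210, 746 and 1640) made up most of these sums. The remaining leukocyte marker, Adgre1 (55.7, 56.5 and 57.8), also of macrophages, was not called in any comparison. The part of leukocytes, endothelium or fat cells in the rise of Cd36 was not tested. Of 7 hepatocyte markers on the array Ahsg, Fga, Fgb and Tat lay below the level throughout and 3 were tested, with list sums of 3783 to 4286, 4697 to 5332 and 4482 to 4799. Ttr made up most of these sums. Cyp2e1 (301, 845 and 382) rose by 1.44 with the inhibitor (adjusted p 2.55e-07). Its rise of 0.33 with the ligand (adjusted p 0.0357) was lost in 10 of 21 alternatives, up to an adjusted p of 0.194, among them the fits without untreated replicate 1 (0.134) or 2 (0.092) or ligand replicate 2 (0.0598) or 3 (0.106). Alb (63.7, 34.6 and 63.5) fell by 0.66 with the inhibitor, a call lost without untreated replicate 3 (0.0727) or inhibitor replicate 2 (0.0772), and Ttr (3570, 4020 and 4210), which enteroendocrine cells also express, was not called in any comparison. Of 8 fibroblast markers Col1a1, Col3a1, Dcn and Lum lay below it throughout, and Vim fell by 1.11 with the inhibitor (sums of 319.2 to 342.4, 204.4 to 274.4 and 351.3 to 417.8). Without inhibitor replicate 3 the fibroblast count was 2, 1 of them higher.

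Along the gut, genes of the proximal small intestine had 3 of 6 higher with the inhibitor, among them Cyp2b10 (1.37) and Ada (0.62), and 3 lower and 1 higher with the ligand. Their sums were 9294 to 10290, 12710 to 13730 and 6539 to 7187. Of 4 distal genes 1 was tested, Guca2a (3140, 2680 and 2940), and it was not called (sums of 2776 to 3457, 2645 to 2801 and 2449 to 3333), while the ileal genes Fabp6 (28.2, 18.5 and 15.8), Fgf15 (6.42, 6.61 and 4.53) and Slc10a2 (2.33, 25 and 9.64) did not pass the filter. With no filter 1 of the 4 was called higher with the inhibitor, and without untreated replicate 1 or ligand replicate 1 a distal gene was called lower.

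The 5 genes outside the 10 whose log2 signals followed Cd36 most closely over the 9 arrays were Scin (Pearson r 0.996), Trappc4 (0.992), Fam8a1 (0.992), Btbd3 (0.991) and Tstd3 (0.99). These points come from 3 groups, so the correlation mostly follows the group means. Scin, an actin-severing protein, rose by 1.17 with the inhibitor and fell by 0.67 with the ligand (2016, 4550 and 1262). Tstd3 rose by 0.95 and fell by 0.67, Btbd3 rose by 0.47 and fell by 0.31, and Fam8a1 rose by 0.40 and fell by 0.24. The ligand call of Btbd3 was lost with the mean of probe sets (0.0587), and that of Fam8a1 without untreated replicate 1 (0.0682) or 2 (0.0567). Trappc4 rose by 0.24 with the inhibitor, turning to -0.04 with the mean of probe sets, and its ligand change of -0.16 was not called (adjusted p 0.0832). Among the 10 genes themselves the correlation with Cd36 was highest for Apoa1 (0.969), Mttp (0.959) and Apob (0.931) and lowest for Fabp1 (0.608).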

How the data were processed

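Each deposited value is the linear intensity of 1 probe set on 1 array, computed with MAS5 per the submitters' processing notes, which give no version or scaling step. MAS5 subtracts mismatch signals, which leaves dim values noisy, and the shared trimmed mean removes differences in total RNA. Labelled RNA was amplified with the MessageAmp Premier method per the labels. All 9 arrays were used. Of the 45101 probe sets, 34958 had 1 gene symbol in the platform annotation, 932 several and 9211 none there; the Entrez identifiers of all 20 probe sets of the 10 genes gave the same symbols in RefSeq.

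Signals became log2(signal + 16), and probe sets above the 40th percentile on at least 3 arrays were kept. A gene was read from its brightest probe set, one ending in _x_at only where it had no other. One limma 3.58.1 model in R 4.3.3 gave a mean per group over 9 arrays (6 residual degrees of freedom), with an intensity trend, 2-sided tests and Benjamini-Hochberg adjustment over 12941 genes at 0.05. Fits of all 28655 probe sets were made beside it. The pipeline was tested on simulated data. Dim values are the least precise, and 3 arrays a group limit all others.

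The 10 genes, the 17 other lists (179 genes) and the tests were chosen with earlier results of these data known. Named genes are the 10, up to 4 called genes with the smallest p per pathway list and comparison, up to 2 per cell type list, and the 5 most like the widest-ranging gene. Further genes were named after their values were seen: Plin2, P4hb, Hnf4a, Apoe, Apoa5, Cd68, Kdr, Ttr, Plin4, Guca2a, Fabp6, Fgf15 and Slc10a2, and those listed below the filter level. Adgre1 was also named after its values were seen. The alternatives were other offsets, filters, scalings, designs, probe set rules and each array left out.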

Additional observations from a re-analysis of the deposited data

How the results depend on the processing

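Over 21 alternatives the inhibitor called 5 to 8 of the 10 genes higher (5 to 7 with 1 array left out), the ligand 7 to 8 lower (7 to 8) and ligand against inhibitor 9 to 10 lower (9 to 10). Of 630 recomputed changes of the 10 genes 593 kept their direction and their side of the threshold. The 21 lost calls were those of Apoa4 and Apoc3 with the inhibitor, and 11 were gained, by Fabp1, Fabp2 and Apoa4. Those that turned in sign were Fabp1 with the inhibitor, never called: 0.077 under quantile normalization, 0.010 under median centring, 0.035 with the mean of probe sets, and -0.11 to 0.070 with 1 array left out (0.023 without untreated replicate 2 and 0.070 without inhibitor replicate 1); the cause was not tested. The sums of both changes turned for Apoa4 (-0.035 under median centring, -0.065 with the mean of probe sets, -0.165 with _x_at allowed, and -0.092 to 0.153 with 1 array left out) and Apoa1 (-0.002 with _x_at allowed, and -0.006 to 0.221 with 1 array left out), both uncalled.

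Of 3837 values of the other named genes 3715 kept both, and 12 turned, none of them called after turning: Trappc4 with the inhibitor (-0.035), Abhd5 with the ligand (0.043) and Nr5a2 for ligand against inhibitor (-0.149), each with the mean of probe sets; Bscl2 with the ligand (-0.051 under median centring, and -0.005 to 0.112 with 1 array left out); Tmem41b with the ligand (0.206 with _x_at allowed). With 1 array left out Alb ran from -0.164 to 0.099 and Csf1r from -0.361 to 0.031 with the ligand, and Clca1 from -0.213 to 0.027 for ligand against inhibitor. Of 1071 list counts 1018 stayed within 1.5-fold.

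The replicate block gave 7, 8 and 10 called genes of the 10, and 5759, 3007 and 7152 of all genes against 5837, 3123 and 7186 without it; the calls of Fabp1 with the ligand (-0.27, adjusted p 0.0371) and for ligand against inhibitor (-0.23, adjusted p 0.0314) were gained. Whether same-numbered arrays shared a culture is not stated in the labels. Their deviations correlated at -0.081 to 0.075, where those of differently numbered arrays correlated at -0.081 to 0.088. Of 9 arrays 3 matched best with their own number. With 3 arrays a group these values cannot decide whether the arrays were paired. Signals below the filter level have the least room to show a fall. Whether the place of Fabp1 at the top of the range affected its changes was not tested.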
